A study of Mus musculus with 6 samples.

Results

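Fibroblast growth factor (FGF) receptors and ligands were followed in sorted dental follicle cells through 10 genes chosen by symbol: the receptors Fgfr1, Fgfr2 and Fgfr3, the receptor-like gene Fgfrl1, and the ligands Fgf2, Fgf3, Fgf7, Fgf10, Fgf18 and Fgf23. Of these 10, 9 are among the 17213 genes of the count table. Fgf23 was read from a second table of estimated counts. Cells of postnatal day 8 mouse mandibular molars that carried a tdTomato reporter for PTHrP were sorted and sequenced as 3 libraries labelled Het, genotype Pth1r(+/-), and 3 labelled KO, genotype Pth1r(-/-). Pth1r is the receptor of parathyroid hormone and PTHrP, and deletion was started with tamoxifen in all groups, on day 3 per the series text and day 8 per the sample descriptions. The sources used here give neither the driver of the recombinase nor the number of animals per library. The comparison asks how transcripts of these cells differ when the receptor is deleted.

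FGFs are secreted proteins that bind receptor tyrosine kinases together with heparan sulfate or, for the hormone-like FGFs, Klotho proteins. The activated receptor signals through the adaptor Frs2 to the Ras and MAP kinase cascade, which induces its own inhibitors of the Sprouty, Spred and Dusp families and the transcription factors Etv4 and Etv5. In the tooth, FGFs pass between epithelium and mesenchyme: Fgf3 and Fgf10 are classically expressed by dental mesenchyme and act on epithelium, and Fgf18 is a ligand of skeletal mesenchyme that acts on bone and cartilage cells.

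The libraries held 34019925 to 66147200 counts. Pth1r went against its labels, at 371, 286 and 346 CPM (counts scaled by library size and TMM) in Het replicates 0, 1 and 2 and at 961, 608 and 472 CPM in KO replicates 0, 1 and 2, so directions below are those of the libraries labelled KO against those labelled Het. Counts over the whole gene do not show whether its deleted part was transcribed. Het replicate 2 stood apart on the first principal component, which held 38.6% of the variance. Follicle mesenchyme markers (10 genes) summed to 20857 to 42072 CPM in the libraries labelled Het and 31030 to 60000 CPM in those labelled KO, nearly all of it Col1a1 and Col1a2. In the fit 6 of the 10 were higher and 4 lower (Pdgfra, Twist1, Msx1 and Postn), none past the test. The 9 dental epithelium markers summed to 5652 to 8663 and 5343 to 11117 CPM, with none of these markers at 0 in all libraries. Markers of other cells (5 genes each) were low. Those of endothelium summed to 8.91, 14.7 and 15.1 CPM in Het replicates 0, 1 and 2 and to 5.25, 8.02 and 5.73 CPM in KO replicates 0, 1 and 2. These sums did not overlap, and 3 of 5 genes were lower in the fit, with Tek and Emcn higher. Gene by gene, the groups did not overlap for 2 of 5, Pecam1 and Kdr (background 10.7% of all genes tested). Markers of macrophages and other leukocytes summed to 3.92, 9.38 and 6.85 and to 5.19, 18.8 and 24.5 CPM. Their fitted values were higher for 5 of 5 genes, beside 49% of all genes tested. Schwann cell markers summed to 17.6 to 36.9 CPM. No gene of these 3 lists passed edgeR or DESeq2 with all libraries. DESeq2 without Het replicate 2, chosen after seeing the data, called Mbp of the Schwann cell list (log2 fold change 1.49, adjusted p = 0.0417). It called 1.02% of all genes. That setting leaves out the Het library where Mbp was highest, so the call is no support for a difference. The part of these cells in the results below was not tested.

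The ligands Fgf10 and Fgf18 had the largest fitted differences between the groups, in opposite directions, and the RefSeq sequences around their starts (300 bases each, GRCm38.p6, whose coordinates are those of mm10) are shown because most of the results turn on these genes. Capitals mark the GC box GGGCGG or its reverse complement, the element bound by Sp-family factors, which occurs once in each.
Fgf10, chr13:118714449-118714748, plus strand: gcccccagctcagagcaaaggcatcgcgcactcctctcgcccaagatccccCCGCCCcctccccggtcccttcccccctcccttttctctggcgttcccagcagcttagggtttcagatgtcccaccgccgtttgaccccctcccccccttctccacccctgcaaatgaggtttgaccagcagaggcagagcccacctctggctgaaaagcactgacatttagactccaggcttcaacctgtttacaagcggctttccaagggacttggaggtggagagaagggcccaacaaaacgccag
Fgf18, chr11:33147351-33147650, minus strand: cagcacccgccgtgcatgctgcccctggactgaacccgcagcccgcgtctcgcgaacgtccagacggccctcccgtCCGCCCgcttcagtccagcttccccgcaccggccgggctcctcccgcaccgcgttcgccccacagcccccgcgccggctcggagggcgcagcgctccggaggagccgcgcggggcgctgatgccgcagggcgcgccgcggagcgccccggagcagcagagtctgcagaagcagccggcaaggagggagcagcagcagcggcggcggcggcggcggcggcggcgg
Because Pth1r signals through cyclic AMP, the cAMP response element TGACGTCA and its core TGACG were also searched on both strands; each full element contains the core on both strands. RefSeq promoters were matched for 9 of the 10 genes, with 2 for Fgfr3, and not for Fgfr1. The full element was in none of these 10 promoters and in 1.79% of 32851 promoters of the same length. The core was in those of Fgf2 and Fgf23, and in 20.8% of all promoters. The GC box was in those of Fgf2, Fgf10, Fgf18, Fgfrl1 and both of Fgfr3, against 35.7% of all. The promoters with a GC box had a G and C content of 60.7% to 78.7%. The median over all promoters was 52.7%, so the background was not matched for it. A match describes the letters of this window and is not evidence of binding.

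Levels were compared between genes on the authors' FPKM scale, which divides by transcript length. Fgfr2, whose splice forms receive ligands of epithelium or mesenchyme, was the most abundant member, at 98.6, 137 and 114 FPKM in Het replicates 0, 1 and 2 and 130, 149 and 91.2 FPKM in KO replicates 0, 1 and 2. Fgfr1, the main mesenchymal receptor, followed at 89.1, 96.5 and 68.5 and at 90.4, 91.4 and 88.3 FPKM. The ranges of these receptor genes overlapped, but Fgfr2 was above Fgfr1 in 6 of 6 libraries, by a ratio of 1.03 to 1.66. The counts do not separate the splice forms of either.

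Below them, Fgf3 averaged 31.2 ± 20.5 FPKM, Fgfrl1 17.8 ± 3.28 FPKM and Fgfr3 11.99 ± 5.56 FPKM (SD over 6 libraries). Fgf3 was above Fgfrl1 in 5 of 6 libraries and Fgfrl1 above Fgfr3 in 5 of 6, with overlapping ranges. Differences between these neighbours were not tested. Fgf18 averaged 2.74 ± 1.69, Fgf10 1.89 ± 1.45, Fgf7 0.872 ± 0.213 and Fgf2 0.684 ± 0.415 FPKM. Fgf18 was above Fgf10 in 3 of 6 libraries and Fgf7 above Fgf2 in 4 of 6, and their ranges overlapped too. Every neighbouring pair in the order had overlapping ranges except Fgfr1 and Fgf3, although Fgfr3 was above Fgf18 in 6 of 6 libraries. Counts per kilobase of the longest annotated transcript kept 5 of the 9 ranks, exchanging Fgf3 with Fgfrl1 and Fgf18 with Fgf10. On that scale Fgf7 averaged 1.03 and Fgf2 0.0506. Their CPM did not overlap either, at 2.11 to 4.33 for Fgf7 and 0.0951 to 0.575 for Fgf2. The overlap of Fgf7 with Fgf2 thus held for the deposited FPKM only.

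**Figure D1:**
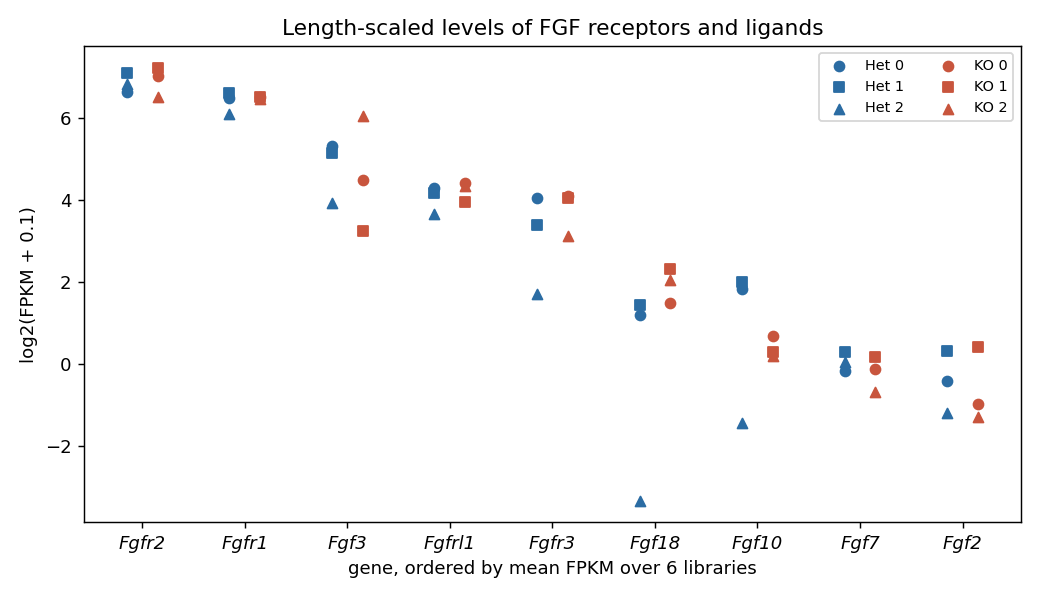
Level of each gene on the log2(FPKM + 0.1) axis in 6 libraries, blue for the libraries labelled Het and red for those labelled KO, with the marker shape giving the replicate number. Fgfr2 and Fgfr1 lie highest, and the triangle of Het replicate 2 is the lowest point for Fgf18, which is listed at 0 there, and for Fgf10.

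The FPKM scale itself differed between libraries for some members. FPKM per CPM was 0.211 to 0.226 for Fgf10 in the 4 libraries numbered 0 and 1, but 0.123 in Het replicate 2 and 0.120 in KO replicate 2. Fgf7 had 0.377 to 0.397 against 0.216 and 0.208 in the same libraries, and Fgf2, at 2.08 to 2.18 against 3.02 and 3.25, went the other way. For Fgfr1 and Fgfr3 the ratio varied by at most 1.05-fold over all libraries. Over 11755 genes with at least 1 CPM in every library, 17.5% had a ratio in the libraries numbered 2 that was more than 1.5-fold away from the other 4, compared with 0.0595% between the libraries numbered 0 and those numbered 1. The cause of this was not tested, and group differences are given as CPM. The order by mean FPKM over the 4 libraries numbered 0 and 1, chosen after seeing the data, was the same for all 9 members.

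Of the receptors, Fgfr1 (chromosome 8, 25518759 to 25575718 on the plus strand, mm10) was at 431, 470 and 329 CPM in Het replicates 0, 1 and 2 and at 444, 454 and 419 CPM in KO replicates 0, 1 and 2. The groups overlapped, and only Het replicate 2 lay below the others. Fgfr2 (chromosome 7, 130162451 to 130266808, minus strand) was at 494, 662 and 676 CPM and at 662, 735 and 534 CPM. Here the lowest library was Het replicate 0, and Het replicate 2 lay among the higher ones. The log2 fold changes were 0.098 ± 0.19 for Fgfr1 and 0.076 ± 0.21 for Fgfr2 (fitted value ± SE, n = 3 each), with adjusted p of 0.981 and 0.982 in edgeR's quasi-likelihood test.

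Fgfr3 (chromosome 5, 33721724 to 33737068), the receptor that restrains growth of cartilage, varied more. It was at 65.6, 41.1 and 12.8 CPM in Het replicates 0, 1 and 2 and at 68.7, 66.2 and 33.5 CPM in KO replicates 0, 1 and 2, so the groups overlapped and the lowest library in each was the one numbered 2. Its log2 fold change of 0.49 ± 0.52 (edgeR adjusted p = 0.976) was 0.083 without Het replicate 2 and 1.05 without Het replicate 0. Fgfrl1 (chromosome 5, 108694229 to 108706950), which binds FGFs but lacks a tyrosine kinase domain, was at 48.7, 43.2 and 25.8 CPM and at 54.4, 38.3 and 39.8 CPM. Its groups overlapped as well, with a log2 fold change of 0.17 ± 0.28 and an adjusted p of 0.981 in edgeR.

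Among the ligands, Fgf10 (chromosome 13, 118714699 to 118792573), which signals through the epithelial form of Fgfr2, was at 16.4, 17.1 and 2.22 CPM in Het replicates 0, 1 and 2. In KO replicates 0, 1 and 2 it was at 7.04, 5.09 and 8.69 CPM. All KO libraries thus lay below Het replicates 0 and 1 and above Het replicate 2. Means were 11.9 ± 8.41 and 6.94 ± 1.80 CPM (SD, n = 3), with a fitted log2 fold change of -0.78 ± 0.65 (SE, edgeR adjusted p = 0.976).

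When Het replicate 2 was left out, the mean of the Het libraries was 16.8 CPM and the log2 fold change of Fgf10 was -1.27 ± 0.32 (SE). Its unadjusted p was then 0.00408, and Fgf10 was the 1 of 9 members under 0.05, where 5.94% of all genes were. Adjusted over all genes in edgeR, p was 0.605. DESeq2 without this library, chosen after seeing the data, gave an adjusted p of 0.0442 for Fgf10 and called 1 of 9 members, where it called 1.02% of all genes. Both fits leave out the Het library where Fgf10 was low, so these p-values are no support for a difference. With all libraries the DESeq2 adjusted p was 0.965, and an exact two-sided permutation test gave p = 0.8. Adjusted p over the 17 alternatives ran from 0.0442 to 0.9999. In bulk RNA, fewer cells of a type and less RNA per cell cannot be told apart.

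Fgf18 (chromosome 11, 33116970 to 33147400) was at 1.96, 2.31 and 0 CPM in Het replicates 0, 1 and 2 and at 2.48, 4.47 and 3.29 CPM in KO replicates 0, 1 and 2. Every KO library was above every Het library, but the gap between Het replicate 1 and KO replicate 0 was small. The 0 in Het replicate 2 allows up to 0.0843 CPM, counting error only. The log2 fold change was 1.26 ± 1.28 (SE, edgeR adjusted p = 0.976), and 0.68 without Het replicate 2. An exact two-sided permutation test gave p = 0.1, its lower limit with 3 libraries in each group.

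Fgf3 (chromosome 7, 144838612 to 144843348) was the most abundant ligand and one of the most variable. It was at 39.1, 36.2 and 11.4 CPM in Het replicates 0, 1 and 2 and at 22.8, 9.83 and 47.6 CPM in KO replicates 0, 1 and 2. The KO libraries held both the highest and the lowest value, and the log2 fold change was -0.11 ± 0.59 (adjusted p = 0.997 in edgeR). The summed CPM of the 9 dental epithelium markers was lowest in the same 2 libraries as Fgf3 and highest in the same one, at 8341, 8663 and 5652 in the libraries labelled Het and 9082, 5343 and 11117 in those labelled KO. That sum is mostly the enamel matrix genes Ambn and Amelx: Ambn was at 1493 and 2120 CPM in the libraries with the least Fgf3, Het replicate 2 and KO replicate 1, and at 6067 CPM in KO replicate 2, which had the most. The basal keratin gene Krt14, at 259, 345 and 475 CPM in these 3 libraries, was at 202 CPM in KO replicate 0, its lowest value. The part of these cells in the Fgf3 values was not tested.

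**Figure D2:**
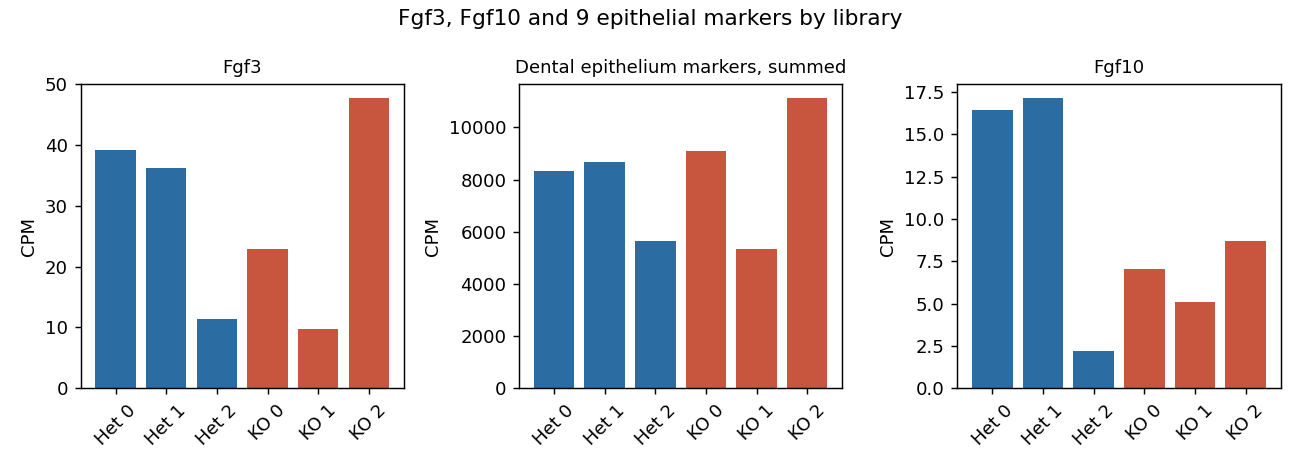
CPM of Fgf3, summed CPM of 9 dental epithelium markers and CPM of Fgf10 in each library (bars start at 0, 1 bar per library, blue Het, red KO). The lowest bars of Fgf3 and of the marker sum are those of Het replicate 2 and KO replicate 1, while Fgf10 is highest in Het replicates 0 and 1.

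The remaining ligands were scarce. Fgf7 (chromosome 2, 126034658 to 126091185), a mesenchymal factor for epithelium, was at 2.11, 2.84 and 4.33 CPM in Het replicates 0, 1 and 2 and at 2.13, 2.63 and 2.51 CPM in KO replicates 0, 1 and 2. It was the only member highest in Het replicate 2, with a log2 fold change of -0.35 ± 0.61 that was -0.025 without that library. Fgf2 (chromosome 3, 37348477 to 37410106) had 19, 19 and 4 counts against 12, 35 and 5, and a log2 fold change of -0.12 ± 1.19. The value of Fgf2 is uncertain: 640 of its exonic bases lie opposite exons of Nudt6, and the sources used here do not give the strand setting of the counting. In addition, 255 of its exonic bases overlap exons of Gm43439 on the same strand, which no strand setting would separate. Shorter exonic overlaps with transcripts of the other strand exist for Fgfr1 (164 bases) and Fgf10 (123 bases), and one of 998 bases for Fgfr3. Fgf23 (chromosome 6, 127072902 to 127082296), the hormone with which bone cells lower blood phosphate, had 0 estimated counts in all 6 libraries, which allows at most 0.0482 to 0.0843 CPM per library.

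**Figure D3:**
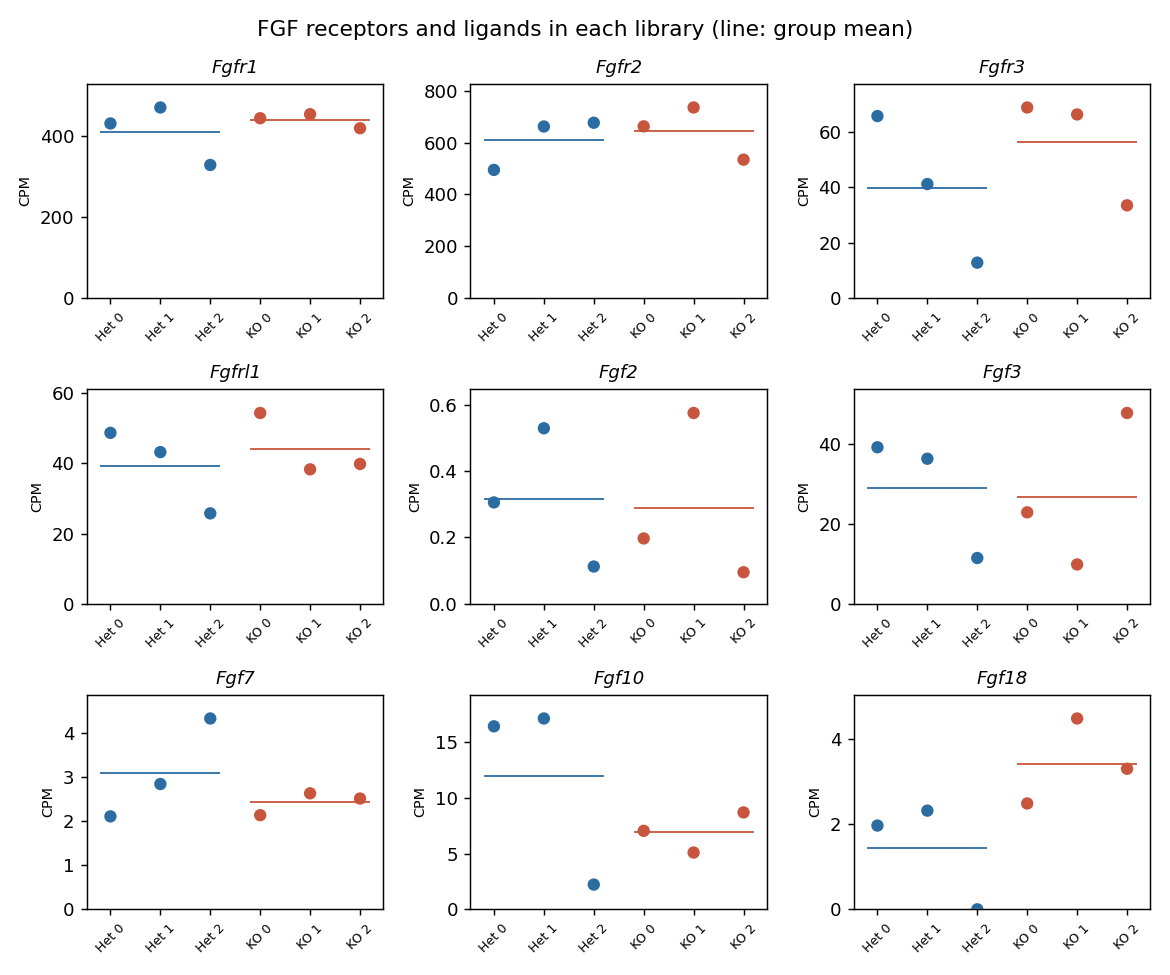
CPM of the 9 detected members in each library, with a line at the group mean (3 libraries each, y axes from 0). Het replicate 2 is the lowest point for Fgfr1, Fgfr3, Fgfrl1, Fgf10 and Fgf18 and the highest for Fgf7.

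All 9 members with counts passed the filter on low counts, and 0 of 9 passed an adjusted p of 0.05 in edgeR, where the background was 0% of 14632 genes. An unadjusted p under 0.05 was found for 0 of 9 members (background 4.29%), and DESeq2 called 0 of 9 (background 0.509%). Fitted values were higher for 5 and lower for 4 of the 9, and the median log2 fold change was 0.076 beside -0.0095 over all genes tested. The groups did not overlap for 1 of 9 members, Fgf18, where the background was 10.7% in either direction and 5.84% with all KO libraries higher. Without Het replicate 2 they did not overlap for 2 of 9, Fgf10 and Fgf18, where the background was 20.6%.

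Spread between libraries differed among the members. The SD of log2 CPM over the 6 libraries had a median of 0.93 for the 9 members and 0.41 for all genes tested, and ran from 0.19 for Fgfr1 and 0.22 for Fgfr2 to 1.10 for Fgf10 and 2.56 for Fgf18. Fgfr1, Fgfr2, Fgfrl1 and Fgf7 lay below the median of all genes. The medians were not matched for abundance: Fgf18 includes a 0 in Het replicate 2, and Fgf2 had 4 to 35 counts per library. Het replicate 2 was the lowest library for 5 of 9 members, and for 29.6% of all genes tested.

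**Figure D4:**
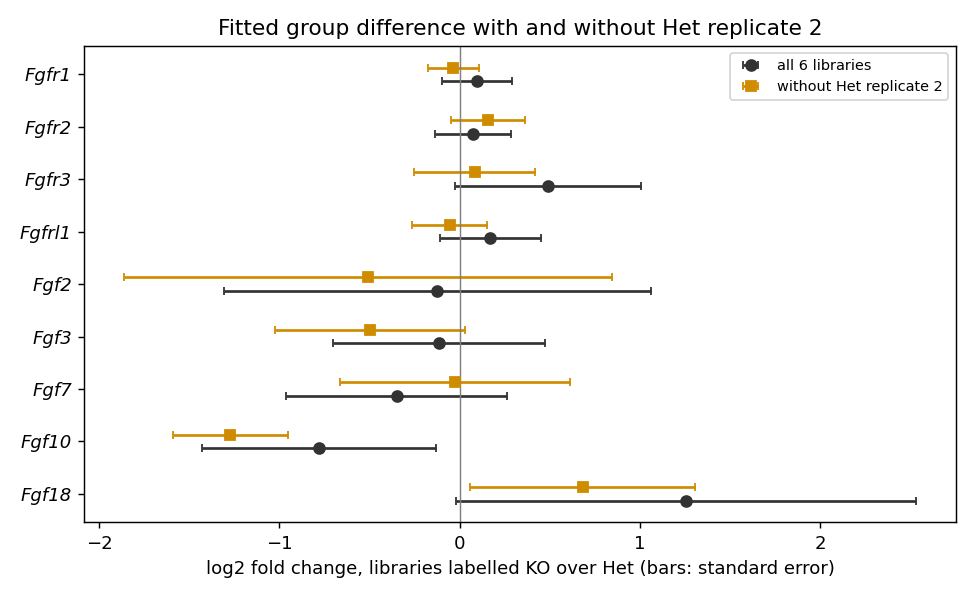
Fitted log2 fold change of each member (x axis, KO over Het) with its standard error, from all 6 libraries (black circles) and without Het replicate 2 (yellow squares). Fgf10 lies at -0.78 and at -1.27, Fgf18 at 1.26 and at 0.68, and the 4 receptor genes between -0.055 and 0.49.

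The genes whose profile over the 6 libraries was most like that of Fgf10, the member with the smallest p in edgeR, were E130304F04Rik, Hapln1 and Dkk1. Likeness was the root mean square difference of mean-centred log2 CPM, which was 0.224, 0.299 and 0.322 for these and had a median of 1.04 over the 10113 genes compared. E130304F04Rik, named Nim1k in RefSeq, was at 15.5, 15.7 and 3.17 CPM in Het replicates 0, 1 and 2 and at 7.13, 5.67 and 10.8 CPM in KO replicates 0, 1 and 2. It lies on chromosome 13 at 119710094 to 119755882, 917521 bases from Fgf10, with 6 protein-coding genes between them. Hapln1, which links hyaluronan to proteoglycans, was at 83.6, 99.2 and 20.7 and at 47.6, 43.1 and 53.5 CPM. Dkk1, a secreted Wnt inhibitor, was at 123, 64.5 and 15.4 and at 45.8, 32.1 and 47.8 CPM. All 3 were lowest in Het replicate 2, as Fgf10 was, which follows from choosing them by their likeness to Fgf10.

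Genes that FGF signalling induces were described from a list of 18 feedback and target genes, 17 of them tested. Fitted values were higher in the libraries labelled KO for 14 and lower for 3, and the median of their log2 fold changes was 0.31; over all genes tested 49% were higher and the median was -0.0095. None of the 17 passed edgeR or DESeq2, and 2 had an unadjusted p under 0.05 (background 4.29%). The groups did not overlap for 3 of 17, Dusp4, Dusp5 and Spred2 (background 10.7%). Dusp4 passed the filter through the group where it is high, so its part in these counts is no support for a difference. Without KO replicate 2 the number with a higher fitted value was 10 of 17 and the median 0.019, where 48.7% of all genes were higher. The list also holds Egr1 and Ccnd1, which many other signals induce.

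Dusp4, a phosphatase of MAP kinases, was at 0.933, 0 and 0 CPM in Het replicates 0, 1 and 2 and at 3.94, 6.61 and 3.96 CPM in KO replicates 0, 1 and 2. Spred2, an inhibitor of the MAP kinase cascade, was at 2.96, 1.61 and 2.30 and at 5.43, 4.70 and 6.15 CPM. Dusp5, a phosphatase of nuclear ERK, was at 2.46, 1.87 and 2.39 and at 4.42, 3.29 and 6.73 CPM. In these genes every KO library was above every Het library, at low levels, and the edgeR adjusted p was 0.976 for each.

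Spred3 went the other way, at 1.42, 4.23 and 10.1 and at 1.53, 2.25 and 1.199 CPM, with overlapping groups. The abundant members were Egr1, at 3318, 2053 and 2541 and at 4003, 2872 and 4179 CPM, Spry1, an inhibitor of receptor tyrosine kinase signalling, at 76.0, 112 and 70.6 and at 83.4, 93.2 and 126 CPM, and the cyclin gene Ccnd1, at 123, 195 and 139 and at 167, 185 and 248 CPM. Their groups overlapped. The classical readouts Dusp6, Etv4 and Etv5, named after their values were seen, had log2 fold changes of 0.10, 0.31 and 0.01.

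**Figure D5:**
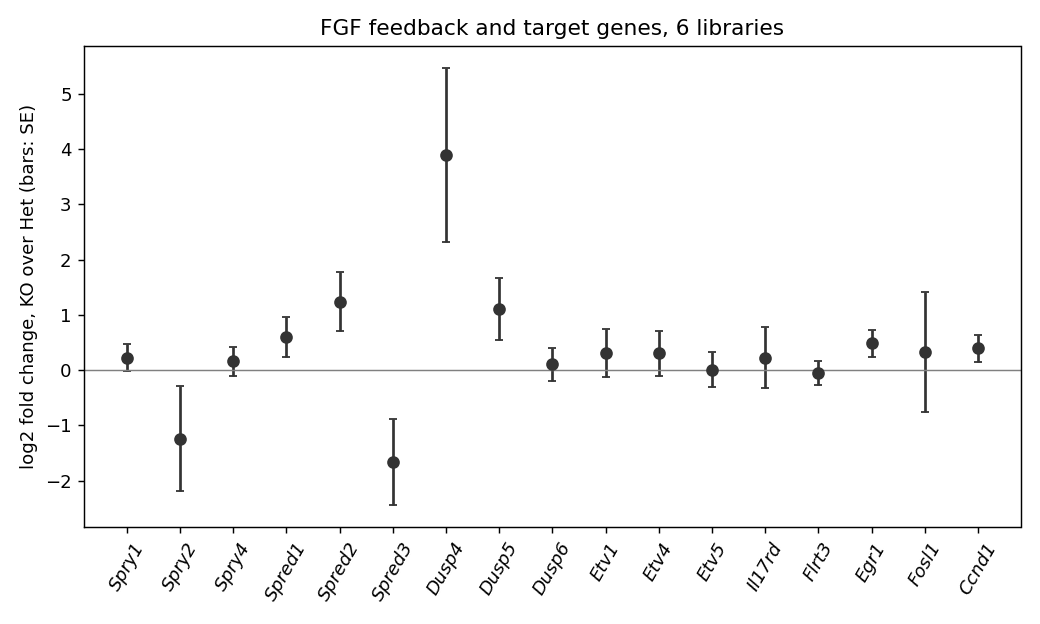
Fitted log2 fold change, KO over Het, with its standard error for 17 FGF feedback and target genes. Dusp4 lies highest at 3.90 with the widest bar, Spry2 and Spred3 lie lowest, and most genes lie between 0 and 0.60.

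Other FGF ligands were mostly scarce or absent. Of 16, 8 passed the filter and 0 passed edgeR or DESeq2 or had an unadjusted p under 0.05, 5 being higher and 3 lower in the fit, at a median log2 fold change of 0.28. Fgf13, an intracellular FGF homologous factor, was the most abundant by FPKM of these and was at 20.0 to 32.2 CPM. Fgf9, a ligand of epithelium and mesenchyme, was at 6.56, 24.1 and 22.7 CPM in Het replicates 0, 1 and 2 and at 15.7, 27.3 and 24.5 CPM in KO replicates 0, 1 and 2. Fgf1, which binds all FGF receptors, was at 11.6, 1.75 and 4.63 and at 5.43, 6.62 and 9.08 CPM. Fgf12, Fgf14 and Fgf16 ranged from 0.393 to 7.72 CPM. Fgf6 and Fgf20 had 0 counts in all libraries.

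Among receptor partners and binding proteins, 15 of 20 listed genes were tested, 8 being higher and 7 lower in the fit, at a median log2 fold change of 0.057; 0 passed edgeR or DESeq2 or had an unadjusted p under 0.05. The glypican gene Gpc1, a heparan sulfate proteoglycan that binds FGFs, was at 511, 370 and 97.0 CPM in Het replicates 0, 1 and 2 and at 978, 536 and 654 CPM in KO replicates 0, 1 and 2. Every KO library was above every Het library, and the log2 fold change was 1.15 ± 0.51 (SE, edgeR adjusted p = 0.976), or 0.72 without Het replicate 2. The syndecan gene Sdc1 was at 604, 609 and 553 and at 543, 523 and 538 CPM, lower in every KO library by a small margin. Fgfr1op2 was at 95.7, 85.0 and 77.3 and at 102, 111 and 107 CPM. Sulf2, which removes sulfate from heparan sulfate, was at 165, 147 and 239 and at 181, 138 and 109 CPM. Hs2st1, which adds it, was at 139, 132 and 209 and at 143, 132 and 131 CPM, and both genes were highest in Het replicate 2. Fibp was at 46.6 to 79.3 CPM.

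Kl, which encodes the Klotho co-receptor of Fgf23 and is named after its values were seen, had 92, 51 and 3 counts in Het replicates 0, 1 and 2 and 1, 0 and 3 counts in KO replicates 0, 1 and 2. That is 1.48, 1.42 and 0.0843 CPM against 0.0164, 0 and 0.0571 CPM, so Het replicate 2 lay far below the other Het libraries and only slightly above the KO libraries. Kl did not pass the filter with all libraries, and its DESeq2 adjusted p was 0.165. DESeq2, run without that filter, called it without Het replicate 2 (log2 fold change -5.93, adjusted p = 0.0243). That setting was chosen after seeing the data and leaves out the Het library where Kl was low, so that call is no support for a difference. In edgeR without Het replicate 2, Kl passed the filter through the group where it is high, and its adjusted p was 0.62.

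Of 21 listed adaptors and kinases that relay the signal, 20 were tested; 13 were higher and 7 lower in the fit, at a median log2 fold change of 0.062. None passed edgeR or DESeq2, and 1 of 20, Cbl, had an unadjusted p under 0.05, a share near the background of 4.29%. Cbl, a ubiquitin ligase that promotes receptor turnover, was at 12.7, 6.71 and 3.90 CPM in Het replicates 0, 1 and 2 and at 15.3, 20.6 and 12.2 CPM in KO replicates 0, 1 and 2, with overlapping groups. The docking protein gene Gab1 was at 146, 144 and 125 and at 179, 241 and 144 CPM. Plcg1, a phospholipase recruited by FGF receptors, was at 41.2, 29.1 and 20.2 and at 45.7, 58.5 and 32.6 CPM. Het replicate 2 held the lowest value of each of these 3 genes. Nras was at 63.8, 77.1 and 123 and at 58.2, 63.4 and 65.6 CPM, highest in Het replicate 2. The abundant Map2k2 and Shc1 were at 94.7 to 268 CPM with overlapping groups, and the ERK gene Mapk3 was at 76.8, 77.0 and 78.1 and at 71.4, 60.9 and 77.2 CPM.

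Genes that process Fgf23 or handle phosphate were measured although Fgf23 was at 0. Of 10 tested, 8 were higher and 2 lower in the fit, at a median log2 fold change of 0.43, beside 49% higher and a median of -0.0095 over all genes tested. None passed edgeR, 1 passed DESeq2 (background 0.509%) and 3 had an unadjusted p under 0.05 (background 4.29%). The groups did not overlap for 3 of 10, Galnt3, Dmp1 and Slc20a1 (background 10.7%). Galnt3, whose glycosylation protects Fgf23 from cleavage, was at 6.18, 10.8 and 1.80 CPM in Het replicates 0, 1 and 2 and at 20.0, 24.8 and 12.99 CPM in KO replicates 0, 1 and 2. Every KO library was above every Het library, with a log2 fold change of 1.62 ± 0.58 (SE, edgeR adjusted p = 0.976). Dmp1, a matrix protein whose loss raises Fgf23 in osteocytes, was at 72.4, 29.0 and 84.8 and at 536, 248 and 138 CPM, and passed DESeq2 (adjusted p = 0.00146) but not edgeR (0.634). Furin, a protease that cleaves Fgf23, was at 165, 139 and 53.0 and at 233, 185 and 160 CPM. The phosphate transporter gene Slc20a1 was at 28.5, 31.1 and 64.6 and at 25.6, 22.6 and 23.3 CPM, and Slc20a2 at 84.4 to 159 CPM. Of the other osteocyte and odontoblast markers, Phex was at 1.27, 2.90 and 2.58 and at 6.04, 4.42 and 0.628 CPM, with overlapping groups and the lowest value in KO replicate 2. Dspp averaged 18.8 CPM in Het and 17.4 CPM in KO, Sost averaged 1.19 CPM in Het and 0.487 CPM in KO, and Mepe had counts in KO replicate 0 only. The part of these cells in the values was not tested.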

How the data were processed

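RNA of 6 libraries of sorted dental follicle cells was analysed. The submitters' processing notes name the mm10 genome, the aligners Bowtie2 2.2.1 and TopHat2 2.0.13, and HTSeq, Cufflinks, Cuffdiff, DESeq2 and FastQC; the sources used here give no role for each, no annotation and no strand setting. The authors deposited whole-number counts for 17213 genes, estimated counts for 23107 genes (1.66% not whole within 1e-06, rounded here) and FPKM values. Deposited scaled and log-transformed copies were not used. Reads carry no molecular identifiers, so floors of 3 counts cover counting error only. Nothing states that libraries are separate animals, so p-values reflect only how these samples vary, possibly for technical reasons.

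Counts were tested in R 4.3.3 with edgeR 4.0.16 (quasi-likelihood, TMM, default filter, 14632 genes, two-sided, Benjamini-Hochberg, threshold 0.05). Standard errors came from the F statistic. Likeness used log2 CPM (prior count 2) and genes with a mean of at least 3. The exact permutation test used log2(CPM + 0.5). Alternatives used DESeq2 1.42.0 and limma 3.58.1 (voom with quality weights, or limma-trend on log2 FPKM with a pseudocount of 1 or 0.1, where a fold change understates that of low genes). The script was tested on simulated data. Positions came from RefSeq and exon overlaps from GENCODE.

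The members, gene lists and tests were chosen with earlier results of these data known. All members were named, and from each other list up to 4 genes with the smallest p and 3 with the highest FPKM. DESeq2 without Het replicate 2 and the level order over 4 libraries were chosen after seeing the data. Counts of all pairs of libraries differed far beyond sampling noise (chi-square over degrees of freedom 91.3 or more), and each was counted as 1 sample. A gene of the signal relay list is not reported here.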

Additional observations from a re-analysis of the deposited data

How the results depend on the processing

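Alternatives were scaling by RLE, no filter or a filter of 10 CPM in 3 libraries, DESeq2, edgeR's newer quasi-likelihood method, limma-voom, estimated counts, 3 FPKM fits, the replicate number as a block and each library left out. Members past the threshold numbered 0 in all of them, and 1, Fgf10, in DESeq2 without Het replicate 2, which called 175 genes in all. The stricter filter tested only 5 members, leaving out Fgf2, Fgf7, Fgf10 and Fgf18. The FPKM fit that required 1 FPKM in 3 libraries tested 7, leaving out Fgf2 and Fgf7. DESeq2 with all libraries called 87 genes; the stricter filter, the newer edgeR method, limma-voom and the 3 FPKM fits called 1 each, and leaving out single libraries gave 0 to 1. Of the feedback genes 9 of 10 were higher under the stricter filter, and 10 to 15 of 17 with single libraries left out. By CPM per kilobase 5 of 9 ranks were kept.

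Signs that reversed, in fits where the member did not pass, were those of Fgfr1 (-0.034 without Het replicate 2; -0.036 in DESeq2 without it), Fgfrl1 (-0.055; -0.056), Fgfr2 (-0.058 without Het replicate 0, -0.029 without KO replicate 1), Fgf2 (0.45 without Het replicate 1, 0.11 without KO replicate 0, 0.29 without KO replicate 2) and Fgf3 (0.15 without Het replicate 0, 0.080 without Het replicate 1, 0.28 without KO replicate 1). With single libraries left out the values ran from -0.034 to 0.21 for Fgfr1, -0.058 to 0.19 for Fgfr2, -0.055 to 0.35 for Fgfrl1, -1.09 to 0.45 for Fgf2 and -0.82 to 0.28 for Fgf3. The log2 fold changes of Fgfr3, Fgf7, Fgf10 and Fgf18 kept their direction in every alternative that tested them. The cause was not tested.

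Same-numbered libraries had correlations of deviations from group means of 0.169, 0.0746 and 0.0694, under the limit of 0.1 for pairing in 2 of 3, although each library correlated best with its own number. With the replicate block 0 genes and 0 members passed, and 1 member, Fgfr3, had an unadjusted p under 0.05 in edgeR (background 6.21%), with a log2 fold change of 0.71. Depth limits Fgf2, which had 4 to 35 counts per library.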
